A study of Mus musculus with 2 samples.

Results

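CC chemokines are small secreted proteins that direct leukocyte movement, and 9 of their genes and receptor genes were examined in spleen cells of mice immunized with glucose-6-phosphate isomerase (GPI), an enzyme that induces arthritis in this strain. The 9 genes were listed by symbol (Ccl3, Ccl4, Ccl5, Ccl6, Ccl9, Ccl19, Ccr1, Ccr2 and Ccr7), and every probe set that the array annotation pairs with exactly 1 of these symbols was taken. This gave 13 probe sets for 8 genes, out of 20380 such probe sets for 12393 genes. Ccl19 had none. The spleens were taken at day 10 after an intradermal injection from DBA/1 males that were 6 to 8 weeks of age. The GPI-immunized mice had received 300 μg of recombinant human GPI joined to glutathione S-transferase (GPI-GST) in complete Freund's adjuvant, and the control-immunized mice 100 μg of GST in the same adjuvant, so both groups carried the carrier protein and the adjuvant. Total RNA of the splenocytes of each group was hybridized to 1 Affymetrix mouse expression GeneChip. The methods name 3 spleens per group and do not say whether their RNA was mixed. With 1 array for each group no test is possible, the number of arrays limits the precision, and every ratio below compares these arrays only.

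CC chemokines carry a pair of neighbouring cysteines near the start of the mature protein and act through receptors with 7 membrane passes that couple to G proteins. By custom they are divided into inflammatory chemokines, which draw monocytes, neutrophils and effector lymphocytes to sites of inflammation, and homeostatic chemokines, which guide lymphocytes and dendritic cells within lymphoid organs. In spleen, Ccl19 and its receptor Ccr7 lead T cells and mature dendritic cells into the T cell zone of the white pulp, whereas Ccr2 lets monocytes leave the bone marrow.

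A probe set is a group of short oligonucleotide probes against one transcript, and the authors deposited 1 signal for each, an intensity on a linear scale. Where a gene had several probe sets, the one brightest on average (mean log2 signal) stood for it, and the GPI-immunized signal was divided by the control-immunized one with no further scaling. A gene had enough signal where at least 1 of its 2 values reached 50.2, the median of all signals, which left 6961 genes with a median log2 ratio of 0.06. Bacterial control probe sets without an added target reached 14.1 at most. Of the 18 probe sets for the hybridization spikes, bacterial and phage transcripts added in known amounts, 17 were dimmer on the GPI-immunized array (geometric mean ratio 0.879, SD 0.131 on the log2 scale). Dividing each array by these spikes would raise all log2 ratios by 0.19. The only technical yardstick was the spread of log2 ratios between 2 probe sets of one gene, which came to an SD of 0.257 per probe set from 2538 pairs. It narrowed from 0.297 where the dimmer probe set had a signal of 50 to 100 down to 0.173 above 500. This spread holds no difference between mice or hybridizations.

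The inflammatory receptors Ccr1 and Ccr2 had higher signals on the GPI-immunized array. Ccr1 binds Ccl3, Ccl5, Ccl6 and Ccl9 and is carried by neutrophils, monocytes and macrophages. Its brighter probe set had a control signal of 181.6 and a GPI signal of 388.2, or a ratio of 2.14 (log2 ratio 1.10). This placed Ccr1 at position 115 from the top among the 6961 genes. The dimmer probe set read 12.6 and 25.3. Its control signal lay under the highest bacterial control, so that this probe set is bounded at least 1.79-fold higher. Ccr2 is the receptor of the monocyte chemoattractant proteins and marks inflammatory monocytes. Its brightest probe set had a control signal of 228.8 and a GPI signal of 408.2, or a ratio of 1.78 (log2 ratio 0.84). The other probe sets of Ccr2 read 69.9 against 154.0 and 27.8 against 48.9, with ratios of 2.20 and 1.76. All 5 probe sets of the 2 receptors thus pointed the same way, and the log2 ratios of Ccr1 and Ccr2 differed by 0.26, about the spread of a single probe set.

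**Figure D1:**
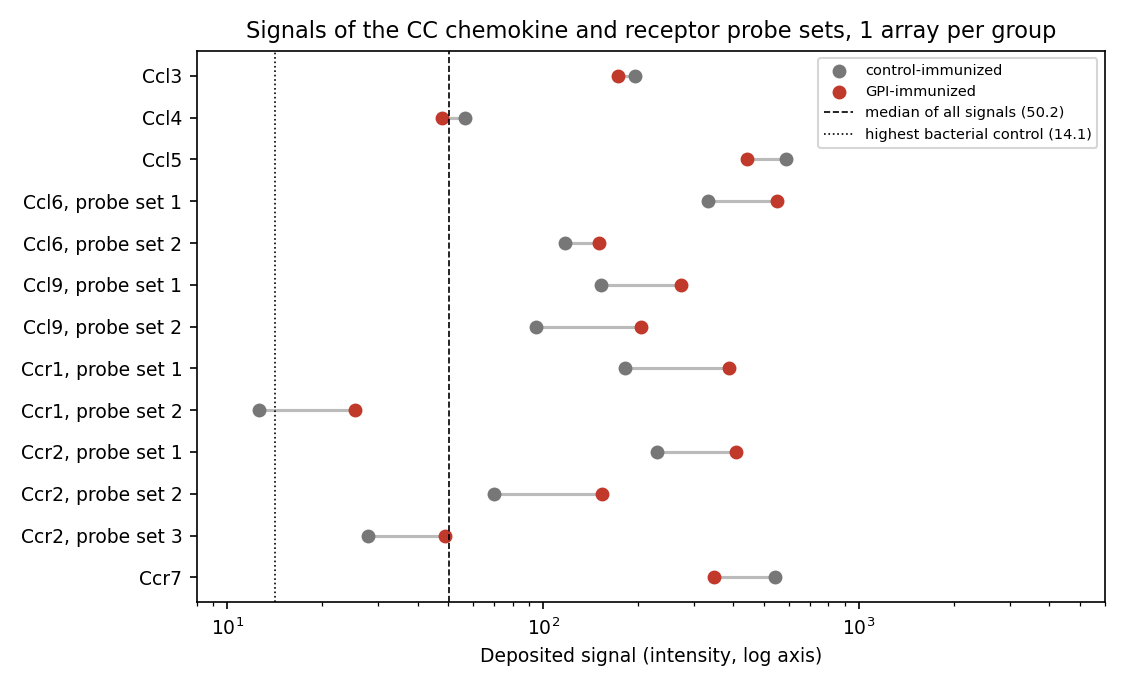
Deposited signal of each of the 13 probe sets (horizontal log axis, intensity) on the control-immunized array (grey) and the GPI-immunized array (red), 1 array per group, with dashed and dotted lines at the median of all signals (50.2) and the highest bacterial control (14.1). The red point lies to the right for all 9 probe sets of Ccl6, Ccl9, Ccr1 and Ccr2 and to the left for the single probe sets of Ccl3, Ccl4, Ccl5 and Ccr7.

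The ligands Ccl6 and Ccl9 also had higher signals on the GPI-immunized array. They are closely related myeloid chemokines that mice express constitutively in macrophages and other myeloid cells and that act on Ccr1. Ccl6 (also C10 or MRP-1) had a control signal of 332.9 and a GPI signal of 551.6, or a ratio of 1.66 (log2 ratio 0.73). Its second probe set, of a class that can pick up several transcripts, read 117.6 and 150.5, a ratio of 1.28. Ccl9 (also MRP-2) read 151.9 and 272.4, a ratio of 1.79 (log2 ratio 0.84). Its second probe set read 94.7 and 203.9, a ratio of 2.15, so that Ccl9 passed 2-fold on one of its probe sets and not on the brighter one that represents it. On the probe sets that represent them, the log2 ratios of Ccl6 and Ccl9 differed by less than the spread between probe sets (-0.11 for Ccl6 minus Ccl9). The second probe sets, with log2 ratios of 0.36 for Ccl6 and 1.11 for Ccl9, were further apart than that spread. So were the ratios averaged over probe sets (1.46 for Ccl6 and 1.96 for Ccl9), and the likeness of the pair thus depends on the choice of probe set.

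Ccl6 and Ccl9 are neighbouring coding genes on chromosome 11, with Ccl5 on one side and Ccl3 followed by Ccl4 on the other (order from RefSeq, GRCm38.p6). The promoter windows of Ccl6, Ccl9 and Ccl3 are shown because the first 2 had ratios well above 1 while the adjoining Ccl3 did not. The windows run from 250 bases before the start of the gene to 50 after it, are given on the minus strand as RefSeq has them in GRCm38.p6, and lie at chr11:83593038-83593337 for Ccl6, chr11:83578587-83578886 for Ccl9 and chr11:83649329-83649628 for Ccl3. Capitals mark the best matching stretch of Ccl6 and Ccl9.
Ccl6: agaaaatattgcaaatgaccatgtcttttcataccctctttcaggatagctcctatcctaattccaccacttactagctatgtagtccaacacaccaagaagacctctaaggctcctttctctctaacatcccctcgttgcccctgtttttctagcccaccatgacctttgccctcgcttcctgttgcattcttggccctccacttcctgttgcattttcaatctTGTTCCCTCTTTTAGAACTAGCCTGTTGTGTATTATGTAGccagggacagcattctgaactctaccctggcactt
Ccl9: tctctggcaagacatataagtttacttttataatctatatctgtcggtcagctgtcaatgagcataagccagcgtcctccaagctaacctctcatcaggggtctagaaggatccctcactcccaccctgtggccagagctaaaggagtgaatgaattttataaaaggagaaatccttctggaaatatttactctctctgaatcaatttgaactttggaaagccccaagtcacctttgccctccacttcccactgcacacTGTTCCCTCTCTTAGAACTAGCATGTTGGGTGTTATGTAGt
Ccl3: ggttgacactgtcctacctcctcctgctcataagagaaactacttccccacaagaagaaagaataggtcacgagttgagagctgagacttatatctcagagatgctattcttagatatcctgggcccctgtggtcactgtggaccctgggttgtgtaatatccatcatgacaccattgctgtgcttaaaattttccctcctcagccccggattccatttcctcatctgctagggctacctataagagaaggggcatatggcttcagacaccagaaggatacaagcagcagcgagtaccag
In this stretch of 40 bases, found without gaps, 36 were identical between Ccl6 and Ccl9 (90.0%). Counting from 1 at the first base of each gene, it spans the start of Ccl6, from position -25 to 15, and lies after the start of Ccl9, from position 10 to 49. Among the 14 other pairs of the 6 members with a window in the table (Ccl3, Ccl6, Ccl9, Ccl19, Ccr1 and Ccr2), no best stretch was longer than 26 bases. Ccl6 and Ccl9 are closely related neighbours, and whether this stretch bears on their ratios was not tested.

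Motifs of factors active in myeloid or inflamed cells, or of the basal machinery, were searched in these 6 windows. The NF-κB motif GGGNNTTTCC, on either strand, was present in Ccl9, at positions -35 to -26, and in 1.61% of 32544 distinct windows of the same length. The AP-1 motif TGANTCA was also present in Ccl9 (7.79% of all windows), as was the TATA motif TATAAA on the forward strand (8.28%). The PU.1 core GAGGAA, on either strand, was present in Ccr1 and Ccl3 (28.1% of all windows). The C/EBP motif TTGCNNAA, on either strand, was present in 0 of the 6 windows and in 10.8% of all. Matches of these letters describe the windows only.

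The remaining 3 inflammatory ligands had ratios below 1. Ccl3 and Ccl4 (MIP-1α and MIP-1β) are released by activated macrophages, NK cells and T cells, and Ccl5 (RANTES) is made by NK cells and memory and cytotoxic T cells. Ccl3 had a control signal of 195.8 and a GPI signal of 172.5, or a ratio of 0.881 (log2 ratio -0.18). Ccl4 read 56.4 and 47.9, a ratio of 0.849 (log2 ratio -0.24), and is the only member that reached the limit of 50.2 on 1 array alone. Both lay within the spread between probe sets, and scaling to the hybridization spikes moved Ccl3 to 1.00. Ccl5 had a control signal of 587.6 and a GPI signal of 441.6, or a ratio of 0.752 (log2 ratio -0.41), which is larger than that spread. This placed Ccl5 only at position 553 from the bottom among the 6961 genes. Under every scaling used here Ccl5 had a ratio below 1, from 0.706 to 0.855. At 0.855, with the hybridization spikes, Ccl5 lay within the spread between probe sets (0.257).

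Among the lymphoid homing genes, Ccr7 had the lowest ratio of all members. Naive T cells, central memory T cells, B cells and mature dendritic cells carry this receptor for Ccl19 and Ccl21. Its only probe set had a control signal of 542.6 and a GPI signal of 348.0, or a ratio of 0.641 (log2 ratio -0.64), and placed Ccr7 at position 171 from the bottom among the 6961 genes. On the deposited signals, the log2 ratio was more than 2 times the SD between probe sets away from 0 (0.515). Dividing the arrays in other ways gave ratios from 0.602 to 0.730. At 0.730, with the hybridization spikes, the log2 ratio was nearer to 0 than 0.515. The ligand Ccl19 could not be measured, because its probe set carries 10 gene symbols, and on both arrays that shared probe set was under the highest bacterial control (3.1 for control and 2.7 for GPI). The lymphoid homing side of the comparison therefore rests on Ccr7 alone. Reticular stroma cells, the main makers of Ccl19, were poorly represented: 2 of 15 measured stroma markers had enough signal, Bst1 (25.6 and 61.3, over the limit on the GPI-immunized array only) and the widely expressed Vim (1179.1 and 1711.5).

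Counted by a 2-fold rule, 1 of the 8 measured genes was higher (Ccr1) and 0 were lower. Over all 6961 genes with enough signal, 2.23% were at least 2-fold higher (155 genes, 60 of them over the limit only on the GPI-immunized array) and 0.445% at least 2-fold lower (31 genes, 20 of them over it only on the control array). At 1.5-fold, 4 members were higher (Ccr1, Ccl9, Ccr2 and Ccl6) and 1 was lower (Ccr7), beside 7.05% and 3.23% of all genes. The median log2 ratio of the 7 inflammatory genes was 0.73, which is the value of Ccl6. These genes ran from 0.752 for Ccl5 to 2.14 for Ccr1 on the ratio scale, 4 above and 3 below 1. Their median exceeded the log2 ratio of Ccr7 by 1.37, a 2.58-fold separation, which sets Ccl6 against Ccr7. The separation was 1.18 on the log2 scale when the probe sets of a gene were averaged. Dividing an array by a constant cannot move such a difference. Among the receptors, the ratio of Ccr1 was 3.33-fold and that of Ccr2 2.78-fold above that of Ccr7. The inflammatory ligands did not form 1 group. Their median log2 ratio was -0.18, with Ccl9 2.04-fold and Ccl6 1.88-fold above the ratio of Ccl3. All 7 inflammatory genes nonetheless had higher ratios than Ccr7.

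**Figure D2:**
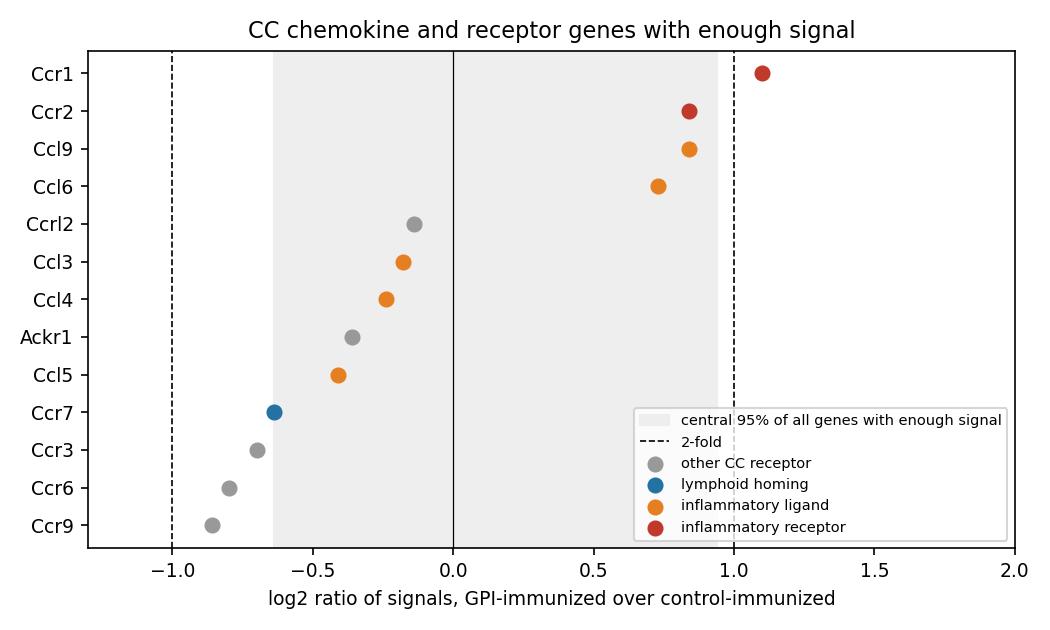
Log2 ratio of GPI-immunized to control-immunized signal (horizontal axis) for the 13 CC chemokine and receptor genes with enough signal, from 1 array per group, with dashed lines at 2-fold and a grey band for the central 95% of all genes (-0.64 to 0.94). Ccr1 at 1.10 lies beyond the band, and Ccr2, Ccl9 and Ccl6 lie just inside its upper edge. Ccr7 and Ccr6 lie at or beyond its lower edge, as do Ccr3 and Ccr9. Ccr3, Ccr9 and Ccl4 reached the limit of 50.2 on the control array only, which by itself fixes their direction.

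Of the 12 other CC receptors and atypical chemokine receptors measured, 5 had enough signal. Ccr9 and Ccr3, 2 of these, reached the limit only on the control array, which by itself places their ratios below 1. Ccr6, a receptor of B cells and of some helper T cells, had a control signal of 473.5 and a GPI signal of 272.3, or a ratio of 0.575. Ccr9, a gut-homing receptor of lymphocytes, had a ratio of 0.549 from a probe set prone to cross-hybridization (82.1 and 45.1), and its other probe sets read 23.6 against 11.3 and 10.9 against 8.4. The eosinophil receptor Ccr3 read 51.7 and 31.8, a ratio of 0.615 close to the limit of sufficient signal. The atypical receptor Ackr1, which binds chemokines without signalling and is found on red cells and venules, had a ratio of 0.780 (397.1 and 309.8). The chemerin-binding receptor Ccrl2 read 194.3 and 176.6, a ratio of 0.909 within the spread between probe sets. The receptors above the limit on both arrays were thus Ccr6, Ackr1 and Ccrl2. The median log2 ratio of -0.70 over the 5 genes is that of Ccr3, and over all 12 measured genes it was -0.25. The 7 dim receptors lay on both sides of 1, with signals of 28.6 at most, among them Ccr10 (15.6 and 21.3), Ackr2 (22.3 and 13.9) and Ackr3 (28.6 and 20.1).

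Of the 13 other CC ligands measured, 0 had enough signal. These include the Ccr2 ligands Ccl2 (control 11.6, GPI 4.1), Ccl7 (10.0 and 0.5) and Ccl12 (0.3 and 0.6), for which no ratio is given because both values lie under the highest bacterial control. The dendritic cell chemokine Ccl22 had signals of 2.5 and 16.1, of which the second is just above that level. On chromosome 11 all 5 genes of the block from Ccl5 to Ccl4 were measured, with ratios of 0.752, 1.79, 1.66, 0.881 and 0.849 in gene order, so that the pair with higher signals stands between neighbours with ratios below 1. The last of these, Ccl4 (56.4 and 47.9), reached the limit only on the control array, which fixes its direction. On chromosome 9, Ccr1, Ccr1l1, Ccr3 and Ccr2 lie next to each other. Ccr1 had a ratio of 2.14 and Ccr2 of 1.78, while Ccr1l1 lacked enough signal (16.8 and 18.1). Ccr3 (51.7 and 31.8, a ratio of 0.615) also reached the limit only on the control array, so no alternation can be read there.

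Genes that act beside the members were also examined. Of 28 measured genes of chemokine receptor signalling (G protein subunits, PI3 kinase γ, Rac activators, receptor kinases, arrestins and RGS proteins), 26 had enough signal, and their median log2 ratio was 0.11. Of these 26, 0 differed 2-fold in either direction. The furthest from 1 were the G protein subunit Gng12 (1.68), the adhesion adaptor Pxn (1.56), the myeloid Src kinase Fgr (1.5) and Gnb2 (1.39). Of 13 co-factors of lymphoid homing with enough signal, 7 lay above and 6 below a ratio of 1 (median log2 ratio 0.04). The interleukin-7 receptor gene Il7r (0.565) and the egress receptor S1pr1 (0.680), both carried by naive T cells, lay below 1 with Ccr7, whereas Ltbr (45.6 and 78.4, over the limit on the GPI-immunized array only, a ratio of 1.72) and the integrin Itgal (1.65) lay above. Chemokines and receptors of the other classes spread more widely. Of 11 with enough signal, the neutrophil attractant Cxcl2 (53.0 and 228.0, a ratio of 4.30) was more than 2-fold higher on signals above the limit on both arrays. Its receptor Cxcr2 (23.5 and 76.6, a ratio of 3.26) reached the limit only on the GPI-immunized array, and Cxcr6 (69.0 and 37.4) and Cxcl9 (77.9 and 47.7) only on the control array, which fixes the direction of each.

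Markers of cell types also differed between the arrays. All 14 neutrophil markers with enough signal had ratios above 1, 6 of them at least 2-fold (median ratio 1.96, summed signal 35742.2 for control and 51922.0 for GPI), with Mmp8 at 3.28 and Mmp9 at 3.26. One of the 6, Cxcr2, is the gene that reached the limit only on the GPI-immunized array. Of 12 monocyte markers 10 lay above 1 and 4 were at least 2-fold higher (median ratio 1.66, sums 8475.9 and 11095.7), with Cd14 at 4.93, the coagulation factor gene F13a1 at 2.70 and the integrin Itgam at 2.41. Ms4a6d, the remaining one of the 4 (32.5 and 83.2), and Fcgr1 (40.4 and 74.6) were counted above 1 through the GPI-immunized array alone. The ratios of Ccr1 (2.14), Ccl9 (1.79), Ccr2 (1.78) and Ccl6 (1.66) lay in the range of these 2 lists. Of 12 T cell markers 10 lay below 1 (median ratio 0.722, sums 2287.9 and 1713.9), with Cd3e at 0.509 and Cd4 at 0.594, as did all 11 B cell markers (median ratio 0.744, sums 19866.1 and 15151.0), of which Fcer2a (0.491) was 2-fold lower. Ccr7 (0.641) and Ccr6 (0.575) lay in the range of both, and also in that of the NK and cytotoxic markers (0.565 to 1.39). The dendritic cell range (0.606 to 1.46) held Ccr7 as well, which also lay at the lower end of the erythroid range (0.641 to 1.35). For NK and cytotoxic lymphocyte markers, sources of Ccl5, 8 of 10 lay below 1 (median ratio 0.839, sums 1245.3 and 1049.9), with Klrd1 at 0.565, Klrg1 at 0.684 and Nkg7 at 1.39. Tbx21 (73.8 and 49.5) and Klrk1 (56.9 and 43.6) are among the 8 and reached the limit only on the control array. For dendritic cell markers 7 of 9 lay below 1, 1 of them (Tlr3) by the control array alone (median ratio 0.837, sums 1573.1 and 1390.7), with Cd209a at 0.606 and Batf3 at 1.46.

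Splenic macrophage markers had a median ratio of 1.14 over 13 genes (sums 5514.8 and 6545.8), with Cd5l at 2.84 and Hmox1 at 1.73. The plasma cell median was 1.06 over 4 genes, from Irf4 at 0.881 to Xbp1 at 1.89. The erythroid median was 0.796 over 7 genes, of which 3 lay above 1, from Epb42 at 0.641 to Gata1 at 1.35. The platelet median was 1.42 over 5 genes, all above 1, the furthest being Gp5 at 1.80 (28.7 and 51.7, over the limit only on the GPI-immunized array). Markers of B cells, T cells, red pulp macrophages and erythroid cells, which spleen holds, were thus measured above the filter, and 0 of the 128 measured markers were listed at 0. None of the 9 named genes is among these markers. In total RNA of the splenocytes, more or fewer cells of a type and more or less transcript per cell cannot be told apart. The part of cell composition in the ratios of the chemokine and receptor genes was not tested.

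**Figure D3:**
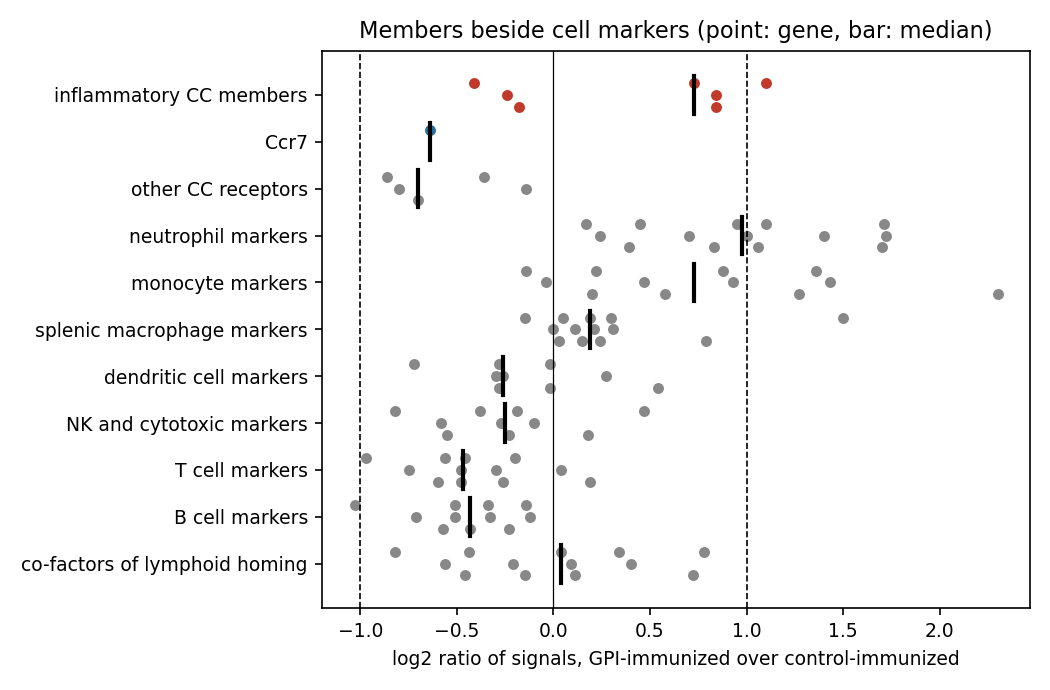
Log2 ratio of GPI-immunized to control-immunized signal (horizontal axis) for genes of each list with enough signal, each drawn as a point, from 1 array per group, with bars at list medians and dashed lines at 2-fold. Genes over the limit on 1 array only are included. The inflammatory members (red) split into 4 genes to the right and 3 to the left. The 4 lie in the range of the neutrophil and monocyte markers and also in that of the splenic macrophage markers. Ccr7 (blue, -0.64) lies among the T and B cell markers and also in the range of the NK and dendritic cell markers.

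Across the other scalings, floors and choices of probe sets, each member kept its place on the same side of 1, except that Ccl3 reached 1.00 with the hybridization spikes. Ccr1 ranged from 2.01 to 2.43, Ccl9 from 1.68 to 2.04, Ccr2 from 1.68 to 2.03 and Ccl6 from 1.46 to 1.89. Ccl4 ranged from 0.795 to 0.967. Only the spike scaling, added after the data had been seen, carried Ccl9 and Ccr2 over 2-fold. Ccr1 stayed above 2 under each setting.

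**Figure D4:**
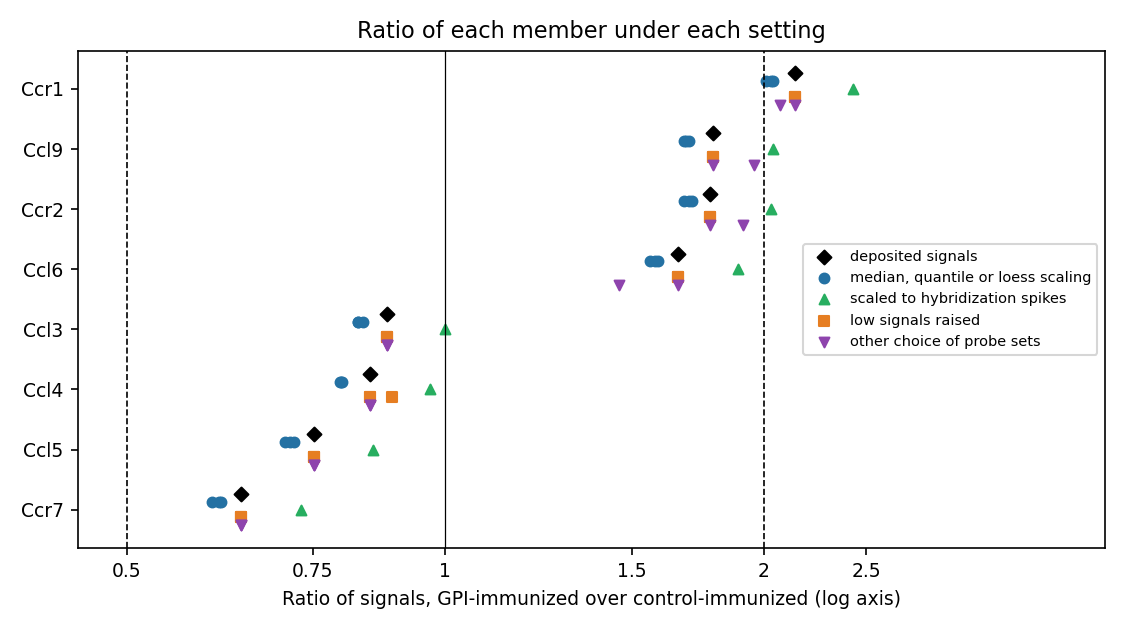
Ratio of GPI-immunized to control-immunized signal (horizontal log axis) of the 8 measured genes, from the deposited signals (diamonds) and under each other scaling, floor or choice of probe sets, with dashed lines at 2-fold and a solid line at 1. Ccr1 stays above 2 throughout, Ccl9, Ccr2 and Ccl6 between 1.46 and 2.04, and Ccr7 at or below 0.730.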

How the data were processed

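The authors deposited 1 intensity per probe set and array on a linear scale, for 22626 probe sets besides 64 controls. They state that gene expression software was used. No source used here names the summarization, scaling or detection calls. The array medians were 48.65 (control) and 51.8 (GPI). Per the labels, cDNA was labelled with a whole-transcript kit, whereas the methods describe biotinylated cRNA.

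Of the probe sets, 20380 have 1 gene symbol in the platform annotation, 691 several and 1555 none. Both arrays were used, grouped by sample title. Signals of 0 (3 values) were set to 0.1 for logarithms. With 1 array per group, a 2-fold rule with a filter at the 50th percentile (50.2) replaced a test. The members and gene lists were chosen with earlier results of these data known, and the promoter motifs after the values had been seen. Named genes are all members, the other CC genes with enough signal and up to 4 per list, those furthest from a ratio of 1; others, such as dim CC ligands, were picked afterwards. Alternatives were median, quantile and loess scaling, floors, filters, thresholds and probe set choice, with hybridization spike scaling added later. The steps were tested on simulated data. Python 3.11.15, numpy 2.4.6, pandas 2.3.3, statsmodels 0.14.6 and matplotlib 3.10.9 were used.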

Additional observations from a re-analysis of the deposited data

How the results depend on the processing

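With 1 array per group, no replicate could be left out, and signals near the bacterial controls limit what can be said of dim genes. Of 345 values recomputed under an alternative, 312 moved by less than the spread between probe sets (counts: by less than 1.5 times). Part of this was fixed by the settings, so the count is no measure of robustness. Spike scaling raises every log2 ratio by 0.19, less than the spread of 0.257, and a floor of 14.1 cannot alter genes with signals above it. The other 33 values follow, and their cause was not tested beyond the construction of each setting. The count of members at least 2-fold higher (1) became 3 with hybridization spike scaling, 0 at 3-fold and 4 at 1.5-fold, and the count lower (0) became 1 at 1.5-fold. Over all genes, the count higher (155) became 253 with the spikes, 1266 with no filter, 711 when filtered at the 25th and 70 at the 75th percentile, 35 at 3-fold and 491 at 1.5-fold. The count lower (31) became 47 with median and with quantile scaling, 11 with a floor at the 50th percentile, 10 with the spikes, 1105 with no filter, 540 when filtered at the 25th and 5 at the 75th percentile, 3 at 3-fold and 225 at 1.5-fold. Median log2 ratios moved for the other CC and atypical receptors (-0.70) to -0.36 with the 50th percentile floor, -0.39 with the spikes, -0.25 with no filter and -0.43 when filtered at the 25th percentile. With the filter at the 75th percentile they moved to -0.55 for NK markers, 0.19 for all CC genes (from -0.24) and 0.47 for monocyte markers. Averaging probe sets gave 0.47 for monocyte, 0.04 for erythroid and 0.38 for plasma cell markers. Reticular stroma markers (0.90) moved to 0.41 with the 50th percentile floor, 0.19 with no filter and 0.54 when filtered at the 25th or the 75th percentile. The difference between the inflammatory median and Ccr7 (1.37) ranged from 1.18, averaged over probe sets, to 1.48, with the filter at the 75th percentile. The split of higher and lower calls over all genes was 83.3% higher, 70.3% after median or quantile, 72.8% after loess and 96.2% after spike scaling.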
